A study of Sus scrofa with 8 samples.

Results

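Pig ribosomal protein genes were followed through the directed differentiation of pluripotent stem cells toward lung. The genes were the rows of the deposited expression table whose KEGG pathway annotation names the ribosome, which were 125 of 25578 genes. They comprised 72 subunit genes of the cytosolic ribosome, 41 of the large and 31 of the small subunit. A further 31 were subunit genes of the mitochondrial ribosome, divided by symbol alone into 22 MRPL and 9 MRPS genes. The other 22 rows carried no canonical subunit name and are called rows outside the canonical set below. Of those 22 rows, 16 carried no gene name and 6 were named: the paralogs RPL3L, RPL26L1, RPL36AL and RPS27L, the large-subunit assembly factor RSL24D1, and FLT3LG, which encodes a cytokine and no ribosomal subunit. The cytosolic genes RPS27, RPL18, RPL19, RPL31, RPL39 and RPL41 were not analysed here. All 125 genes passed the filter on low counts.

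The ribosome is the particle that translates mRNA into protein. Its small subunit reads the message at the decoding centre, its large subunit joins the amino acids, and a flexible stalk of acidic P proteins on the large subunit recruits the elongation factors. In mammals the mRNAs of the cytosolic subunits share a pyrimidine-rich start that places their translation under control of the mTOR pathway. The mitochondrial ribosome is built from a separate set of nuclear genes and translates only the few messages of the mitochondrial genome, which encode respiratory chain subunits.

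The study differentiated porcine pluripotent stem cells (PSC) in steps. The first step gave definitive endoderm (DE), the next gave endoderm of the anterior foregut (AFE), and the last gave organoids of lung progenitors (LPO). Each stage had 2 mRNA libraries, 8 in all. The deposited column names call the PSC libraries EPSC, a term the sample titles do not use. The labels name no cell line, genotype, animal, day or culture medium, and do not state whether replicates were grown separately, so the p-values cover only the spread seen between the 2 libraries, which may be technical. With 2 libraries against 2, an exact permutation test of a single value cannot go below p = 0.333. Library totals were 36004372 to 67566269 deposited counts, or 9001093 to 16891567 read pairs if 4 counts are taken as 1 pair. The stage labels were set against marker lists, whose members did not all follow their stage. The 7 AFE markers summed to 302 and 300 CPM (counts scaled to library size) in DE and 118 and 110 CPM in AFE. In the edgeR test below, 3 were higher and 1 lower in AFE over DE. Of 8 LPO markers, 4 were higher and 3 lower in LPO over AFE. Of 6 PSC markers, 5 were lower and 1 higher in LPO over PSC. All 6 DE markers were higher in DE over PSC. The shares of all genes tested are given below. The pluripotency factor POU5F1 averaged 3260 FPKM (fragments scaled to transcript length and library size) in PSC and 0.02 FPKM in LPO, the endoderm factor SOX17 was highest in DE at 87.4 FPKM, and the lung factor NKX2-1 was listed at 0 in PSC and DE and averaged 7.78 FPKM in AFE and 18.8 FPKM in LPO.

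The cytosolic subunit mRNAs made up a large and stage-dependent part of the transcriptome. Measured per transcript length, the 72 genes together held 23.4% and 23.9% of the FPKM sum in the 2 PSC libraries, 18.0% and 17.4% in DE, 30.0% and 30.0% in AFE, and 15.8% and 15.8% in LPO. The share was therefore highest in AFE and lowest in LPO, and no library overlapped a library of another stage. In deposited counts the same genes held 14.1% and 14.7% in PSC, 10.3% and 9.93% in DE, 18.3% and 18.3% in AFE, and 7.19% and 7.21% in LPO, which is the same order of stages. These are bulk libraries, in which fewer cells of a type and less RNA per cell cannot be told apart.

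**Figure D1:**
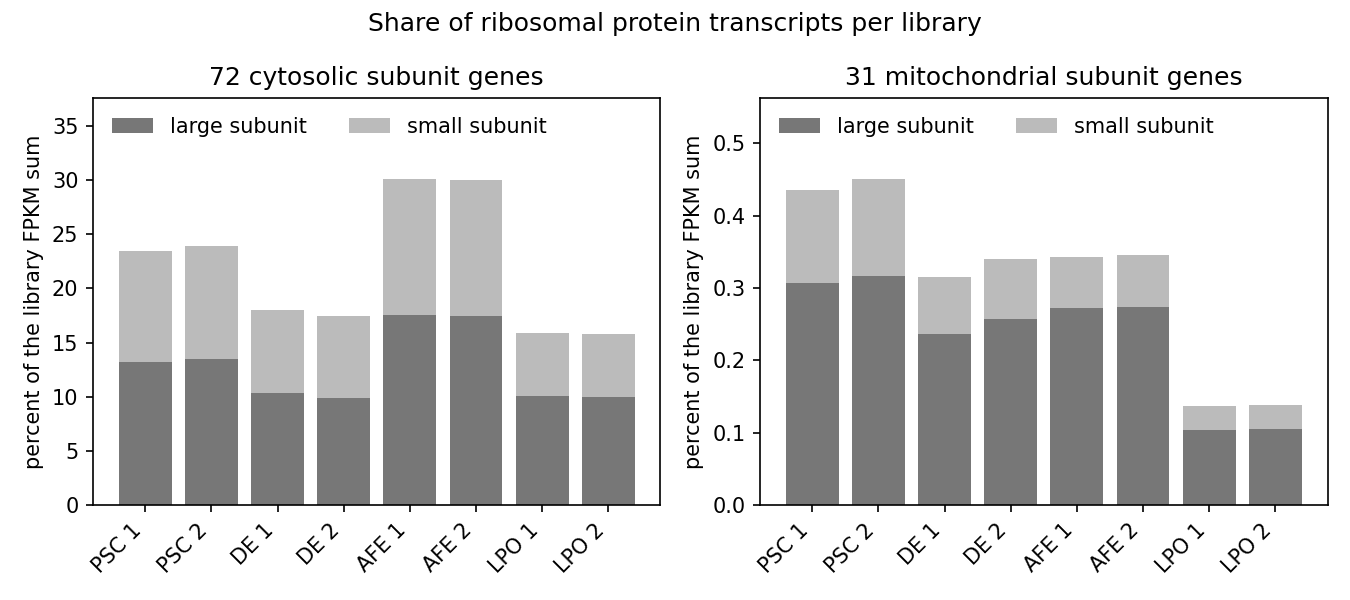
Percent of each library's FPKM sum held by the 72 cytosolic (left) and 31 mitochondrial (right) subunit genes, with 1 bar per library and the large and small subunits stacked. Mitochondrial genes are divided by symbol, with MRPL drawn as large and MRPS as small. The cytosolic bars reach 30.0% in AFE and 15.8% in LPO, while the mitochondrial bars are tallest in PSC, at 0.436% and 0.450%.

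Both subunits of the cytosolic ribosome were highest in AFE. Large-subunit genes held 13.2% and 13.4% of the FPKM sum in PSC, 10.3% and 9.93% in DE, 17.5% and 17.5% in AFE, and 10.04% and 10.002% in LPO. Small-subunit genes held 10.2% and 10.5% in PSC, 7.69% and 7.48% in DE, 12.5% and 12.5% in AFE, and 5.80% and 5.83% in LPO. For the large subunit DE and LPO overlapped, and for the small subunit LPO was the lowest stage. The mitochondrial subunit genes took another course, with their largest share in PSC. They held 0.436% and 0.450% of the FPKM sum in PSC, 0.315% and 0.341% in DE, 0.343% and 0.345% in AFE, and 0.137% and 0.139% in LPO, so PSC was highest and LPO lowest, and DE replicate 2 was close to both AFE libraries.

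Levels differed widely among genes whose products mostly enter the ribosome in equal numbers. The 5 cytosolic genes of highest mean FPKM over the 8 libraries were RPS2 (4960 FPKM), RPL6 (4201 FPKM), RPL13A (4028 FPKM), RPS3A (3503 FPKM) and RPLP0 (3337 FPKM). The lowest were RPL37 (60.9 FPKM), RPL37A (102 FPKM) and RPL38 (114 FPKM), 3 short proteins of the large subunit. RPL37 was the lowest cytosolic gene in every library, whereas the highest was RPL6 in both PSC libraries, RPS2 in the 4 DE and AFE libraries, and RPL13A in both LPO libraries. Near-identical copies and processed retrocopies of these genes can share or lose reads, and transcript models may be incomplete, so the level of any single gene is uncertain.

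Mitochondrial subunit mRNAs lay far lower, with a median per library of 14.0 to 45.5 FPKM against 526 to 1427 FPKM for the cytosolic set. MRPL12 averaged 212 FPKM, MRPS15 155 FPKM, MRPL20 138 FPKM, MRPL11 76.2 FPKM and MRPL18 64.9 FPKM. The lowest were MRPS18C at 2.32 FPKM, MRPS14 at 4.73 FPKM and MRPS18A at 9.57 FPKM. The levels of MRPS18C and MRPS14 are uncertain, because each overlaps a gene on the opposite strand, ABRAXAS1 and CACYBP, whose summed counts were 131% and 438% of theirs.

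Every cytosolic and every mitochondrial subunit gene varied over the protocol. In a test of any difference among the 4 stages (edgeR's quasi-likelihood F test with Benjamini-Hochberg adjustment over 19346 genes, called at 0.05), 72 of 72 cytosolic genes, 31 of 31 mitochondrial genes and 20 of the 22 other rows were called, beside 79.2% of all genes tested. Mean CPM (counts scaled to library size by the TMM method) were highest in AFE for 50 cytosolic genes and in PSC for 22, and lowest in LPO for 68. Among mitochondrial genes the mean CPM was highest in PSC for 25 and in AFE for 6, and lowest in LPO for all 31. The stages of highest and lowest mean were not counted over all genes. All calls that follow are from the same edgeR fit and adjustment, at the same threshold, and all fold changes are those of that fit.

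**Figure D2:**
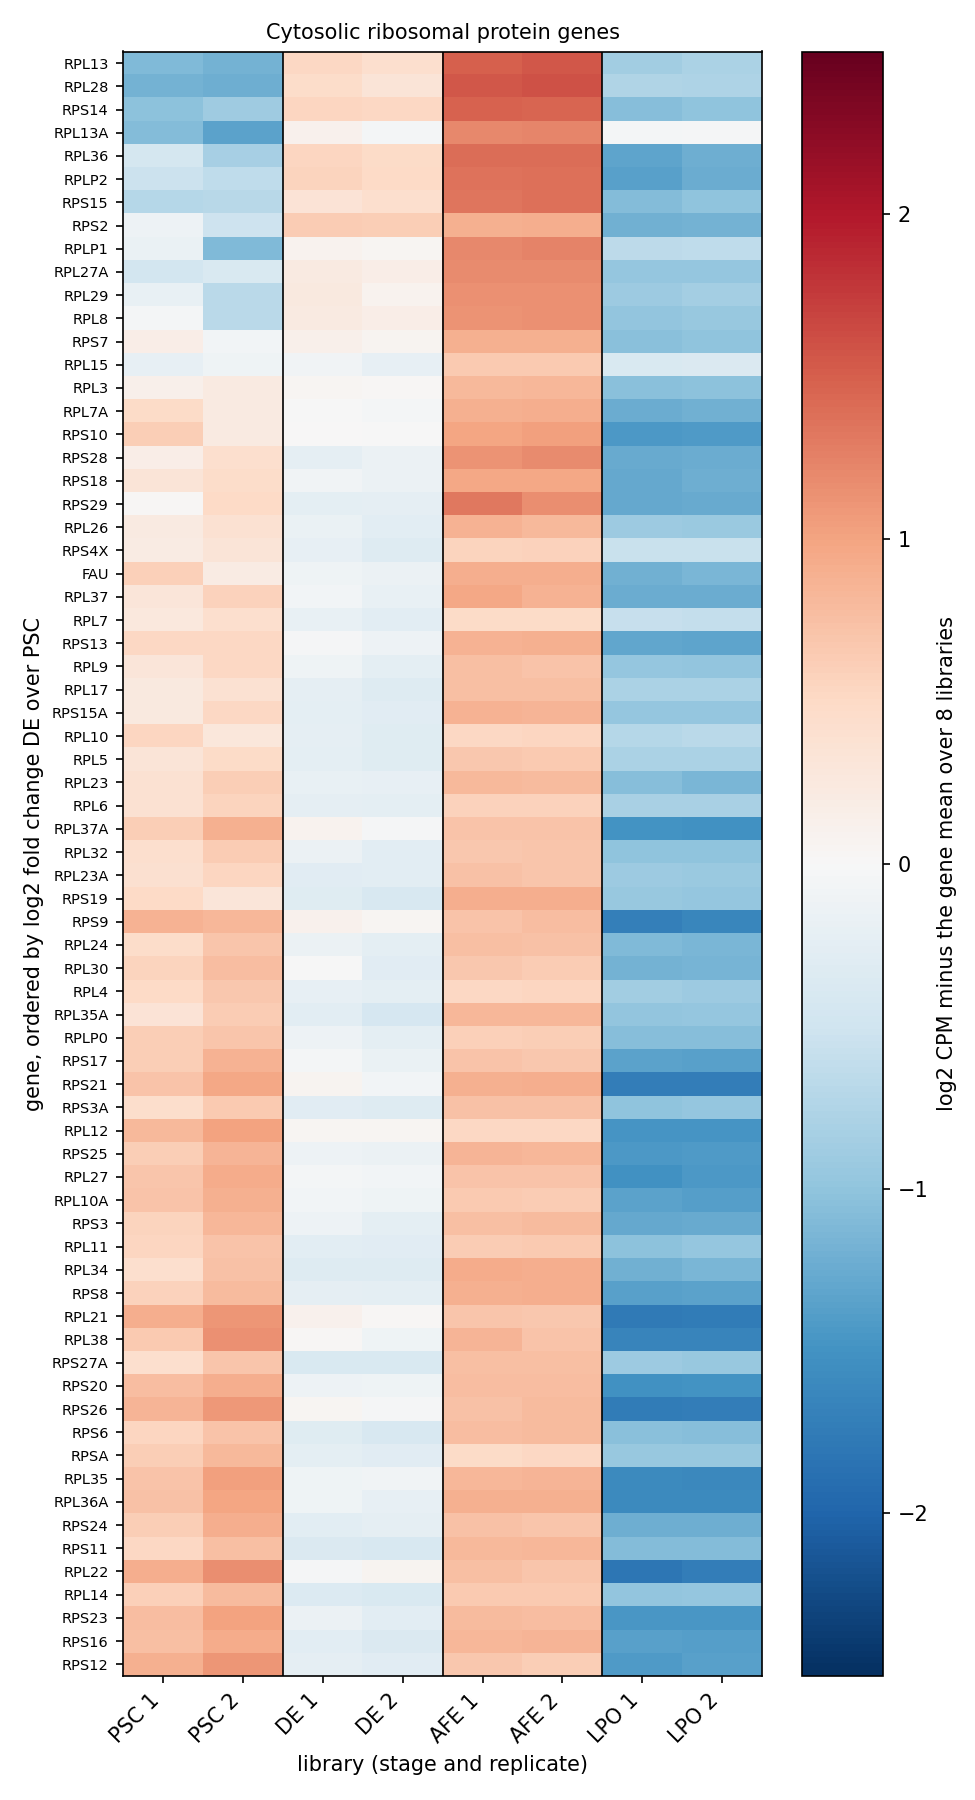
Log2 CPM of 70 of the 72 cytosolic subunit genes (rows) in each of the 8 libraries (columns), minus the gene's mean over libraries. Most genes are above their mean in PSC and AFE and below it in LPO, while the top rows, led by RPL13 and RPL28, are below it in PSC as well.

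From pluripotent cells to definitive endoderm, cytosolic subunit genes split. In DE, 57 of the 72 fell and 12 rose against PSC, while RPL15, RPLP1 and RPS7 did not pass the test. Over all genes tested, 23% fell and 30.8% rose, and the median log2 fold change was 0.08, against -0.74 for the cytosolic genes. By subunit, 31 of 41 large-subunit genes fell and 8 rose, with a median of -0.70, and 26 of 31 small-subunit genes fell and 4 rose, with a median of -0.85.

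The 4 largest falls in DE were RPS12, RPS16, RPS23 and RPL14. RPS12, a protein of the small-subunit beak, had 830 and 790 CPM in DE, against 1779 and 2062 CPM in PSC. Both DE libraries lay below both PSC libraries, and the log2 fold change was -1.25 ± 0.08 (SE, adjusted p = 6.49e-06). RPS16, whose tail reaches the decoding region, had 696 and 647 CPM in DE, against 1393 and 1582 CPM in PSC, a log2 fold change of -1.15 ± 0.07 (SE, adjusted p = 6.89e-06). RPS23, which lies at the decoding centre, and the large-subunit protein RPL14 fell by 1.10 and 1.05 on the log2 scale. The smallest fall called was that of RPL3, a protein near the peptidyl transferase centre, at -0.14 (adjusted p = 0.0297), and it did not pass in a fit to the DE and PSC libraries alone (adjusted p = 0.145) or without AFE replicate 1 or 2 (adjusted p = 0.0525 and 0.0529).

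Among the 12 genes that rose in DE were RPL13, RPL28, RPS14, RPL13A, RPL36, RPLP2, RPS15, RPS2, RPL27A, RPL29 and RPL8. RPL13, a large-subunit protein, had 2945 and 2763 CPM in DE, against 964 and 907 CPM in PSC. The stages did not overlap, and the log2 fold change was 1.61 ± 0.06 (SE, adjusted p = 7.00e-07). RPL28, also of the large subunit, had 1130 and 1027 CPM in DE, against 360 and 352 CPM in PSC, a log2 fold change of 1.60 ± 0.06 (SE, adjusted p = 7.68e-07). RPS14, a small-subunit protein whose loss is linked to a human myelodysplastic syndrome, had 1738 and 1706 CPM in DE, against 589 and 641 CPM in PSC, a log2 fold change of 1.49 ± 0.06 (SE, adjusted p = 8.22e-07). In this gene too each DE library was above each PSC library. RPL13A, which in human cells also takes part in silencing inflammatory mRNAs, had 2403 and 2164 CPM in DE, against 1047 and 886 CPM in PSC, and a log2 fold change of 1.24 ± 0.08 (SE, adjusted p = 1.06e-05). The other 8 rises were between 0.52 (RPL8) and 1.13 (RPL36) on the log2 scale.

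The positions of the genes that rose were also counted. In the table's coordinates, for which the sources name no build, 8 of the 12 lay on chromosomes 2 and 6, against 12 of the 57 that fell and 20 of all 72. RPL13, RPL28 and RPL13A all lay on chromosome 6, RPL13 at 410923 to 413335, RPL13A at 54564793 to 54568340 and RPL28 at 59556687 to 59562147, so RPL13 was far from RPL13A and RPL28. Chromosomes 2 and 6 are those that held the most of the 12, with 4 each, so the pair was chosen from these same counts. The share of all genes on them was not counted. This is a count of positions, made without a test.

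The 2 PSC libraries differed along the same division. Of the 12 genes that rose in DE, 9 had the higher CPM in PSC replicate 1, and of the 57 that fell, 50 had the higher CPM in PSC replicate 2. The median log2 ratio of replicate 1 to replicate 2 was 0.17 in the 12 and -0.21 in the 57, against 0.00 over the 10925 genes above 1 CPM in all 8 libraries. Between the 2 DE libraries both groups leaned to replicate 1, with 11 of the 12 and 48 of the 57 higher there. The medians there were 0.06 and 0.05. Genes of 1 pair of libraries are not independent, so these counts describe a single difference between libraries. RPLP1, an acidic stalk protein, had 1255 and 660 CPM in PSC and 1504 and 1475 CPM in DE. Its log2 fold change of 0.64 ± 0.24 did not pass (SE, adjusted p = 0.056), and was 1.18 without PSC replicate 1 and 0.25 without PSC replicate 2, both called. RPL8 had 2964 and 2876 CPM in DE, against 2475 and 1604 CPM in PSC. Leaving out PSC replicate 1 gave 14 cytosolic genes called higher and 57 called lower in DE, and leaving out PSC replicate 2 gave 13 and 57. What sets the 2 PSC libraries apart, and its part in the split, was not tested.

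From definitive to anterior foregut endoderm, the cytosolic genes rose almost without exception. In AFE, 71 of 72 rose and none fell against DE, beside 17.9% and 17.4% of all genes tested, and their median log2 fold change was 0.94, against 0.00 over all genes. Only RPS2, which lines the mRNA entry channel of the small subunit, did not pass in this fit. It had 9815 and 9919 CPM in AFE, against 8247 and 8184 CPM in DE, with a log2 fold change of 0.26 ± 0.11 (SE, adjusted p = 0.0918). It was called at 0.26 in a fit to those 4 libraries alone (adjusted p = 0.00101), and also when either PSC library was left out (adjusted p = 1.19e-04 and 1.27e-04).

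The largest rises in AFE were in RPS29, RPS28, RPS19 and RPL34. RPS29, a short zinc-binding protein of the small subunit, had 200.4 and 180 CPM in AFE, against 67.6 and 68.6 CPM in DE. Its AFE level was above all other libraries, and the log2 fold change was 1.48 ± 0.15 (SE, adjusted p = 2.03e-04). A signal recognition particle RNA gene on the opposite strand overlaps RPS29 and held 38.6% as many counts, so its value is uncertain. RPS28, which sits by the mRNA exit channel, had 259 and 268 CPM in AFE, against 101 and 107 CPM in DE, a log2 fold change of 1.34 ± 0.10 (SE, adjusted p = 3.99e-05). RPS19, the small-subunit protein most often mutated in human Diamond-Blackfan anaemia, rose by 1.26 and RPL34 by 1.24 on the log2 scale. The 12 genes that had already risen in DE rose again in AFE, except RPS2. So 11 genes rose at both steps, and 57 fell at the first and rose at the second. How many of all genes had these patterns was not counted.

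**Figure D3:**
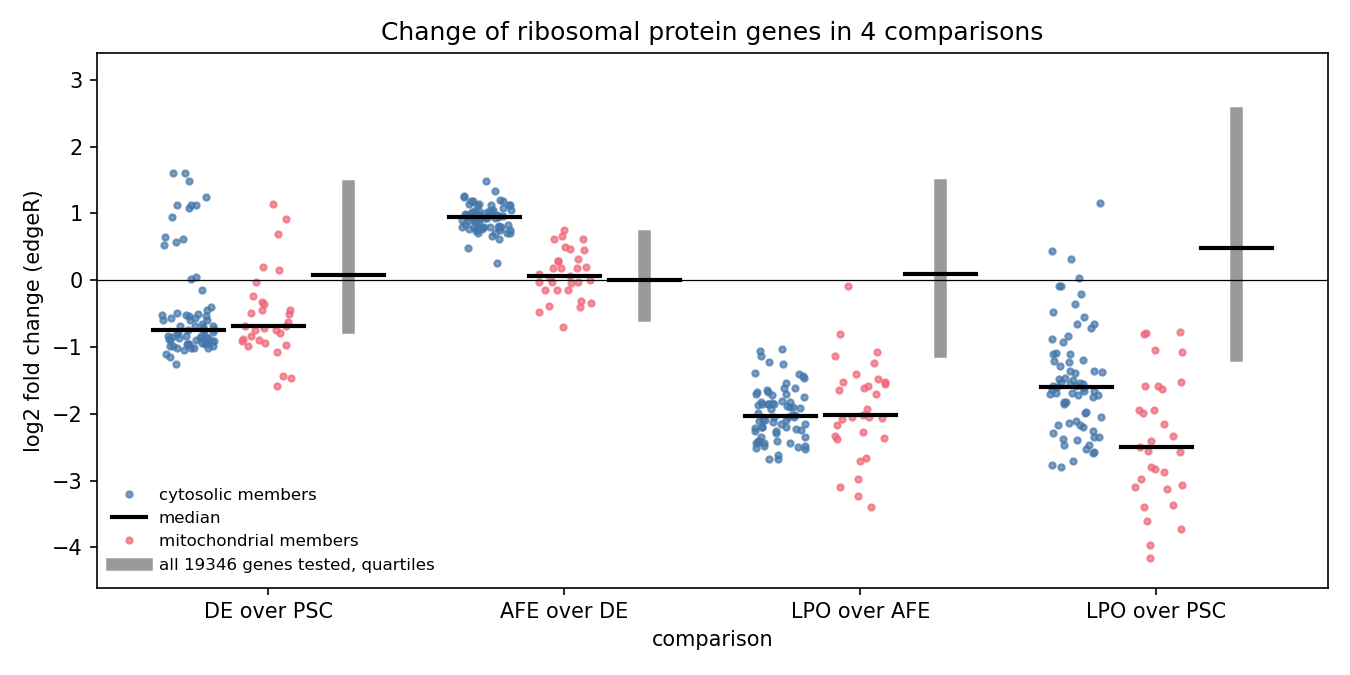
Log2 fold change of each cytosolic (blue) and mitochondrial (red) subunit gene in 4 comparisons, with black bars at the medians and grey bars from the lower to the upper quartile of all 19346 genes tested. Cytosolic medians are -0.74, 0.94, -2.03 and -1.60 from left to right, and mitochondrial medians are -0.68, 0.06, -2.02 and -2.505.

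From anterior foregut endoderm to lung progenitor organoids, every cytosolic subunit gene fell, and in this fit each by 2-fold or more. The deposited FPKM fell by less than 2-fold in some of them. RPL15 averaged 697 FPKM in AFE and 482 FPKM in LPO, and RPL7 1160 and 784 FPKM. In LPO, 72 of 72 fell and none rose against AFE, beside 29.6% and 30.2% of all genes tested, with a median log2 fold change of -2.03 against 0.09 over all genes. The range was -2.67 to -1.03. Of all 19346 genes tested, 3985 were called lower by 2-fold or more. For 41 large-subunit genes the median was -1.89, and for 31 small-subunit genes -2.09.

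RPL36, a large-subunit protein, had 93.2 and 98.8 CPM in LPO, against 609 and 613 CPM in AFE. Its log2 fold change was -2.67 ± 0.12 (SE, adjusted p = 1.09e-06). RPLP2, an acidic stalk protein, had 178 and 194 CPM in LPO, against 1176 and 1183 CPM in AFE, and its log2 fold change was also -2.67 ± 0.07 (SE, adjusted p = 1.75e-07). In both genes the LPO libraries were the lowest of the 8. RPS21 and RPS29, both short small-subunit proteins, fell by 2.62 and 2.52 on the log2 scale. The least affected gene was RPL15, a large-subunit protein, with 1021 and 1032 CPM in LPO, against 2091 and 2091 CPM in AFE, a log2 fold change of -1.03 ± 0.06 (SE, adjusted p = 3.03e-06).

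The size of the fall in LPO depended on how libraries were scaled, while the direction of the median held under every scaling run. FPKM sums were 345563 and 347824 in LPO, against 439098 to 467008 in the other 6 libraries, and on the log2(FPKM + 1) scale limma gave a cytosolic median of -1.53. Summed CPM of the 9 of 10 listed mesenchyme markers in the table was 8660 and 8905 in LPO, against 537 and 545 in AFE, 1447 and 1083 in DE, and 819 and 846 in PSC. None of the 9 was at 0 in LPO or AFE, while TWIST1, LUM and DCN were at 0 in both PSC libraries. The epithelial marker EPCAM averaged 66.1 FPKM in LPO, against 82.4 FPKM in AFE. This is not the CPM scale of the mesenchyme sums, and the cytosolic median fell less on the FPKM scale than in CPM. The part of mesenchymal cells in the fall of ribosomal protein mRNAs was not tested.

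Set against the starting cells, organoids had less of nearly every cytosolic subunit mRNA. In LPO, 66 of 72 genes fell and 3 rose against PSC, beside 28.8% and 41.5% of all genes tested. By 2-fold or more, 56 of the 72 fell, beside 4261 of all 19346 genes tested. The median log2 fold change of the 72 was -1.60, against 0.49 over all genes. This comparison shares its libraries with those above and is no independent evidence.

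The 3 genes higher in LPO were RPL13A, RPL28 and RPL13. RPL13A had 2140 and 2181 CPM in LPO, against 1047 and 886 CPM in PSC, a log2 fold change of 1.16 ± 0.08 (SE, adjusted p = 6.56e-06). Each LPO library was above each PSC library, and LPO levels were close to those of DE. RPL28 had 486 and 482 CPM in LPO, against 360 and 352 CPM in PSC, a log2 fold change of 0.44 ± 0.06 (SE, adjusted p = 2.29e-04). RPL13 had 1130 and 1188 CPM in LPO, against 964 and 907 CPM in PSC, a log2 fold change of 0.31 ± 0.06 (SE, adjusted p = 0.00155). By stage profile these 3 genes also lay farthest from the median profile of the cytosolic class. RPS14 and RPLP1 were among the genes that did not pass, and the count of genes called higher was 5 without PSC replicate 1, when RPLP1 turned to 0.46 (adjusted p = 3.91e-05), and 6 on the FPKM scale with limma, when RPS14 turned to 0.33.

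The largest falls in LPO against PSC were RPL22, RPL21, RPS26 and RPS21. RPL22, an RNA-binding large-subunit protein, had 83.2 and 88.5 CPM in LPO, against 546 and 650 CPM in PSC, a log2 fold change of -2.80 ± 0.10 (SE, adjusted p = 1.44e-07). RPL21 had 326 and 328 CPM in LPO, against 2072 and 2371 CPM in PSC, a log2 fold change of -2.77 ± 0.07 (SE, adjusted p = 5.53e-08). LPO was the lowest stage for both genes. RPS26, which lines the mRNA exit channel, and RPS21 fell by 2.71 and 2.58 on the log2 scale.

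RPL5, RPL11, RPS6 and RPSA, which also have roles beyond the ribosome, each fell in DE, rose in AFE and fell in LPO. RPL5 and RPL11, which in human cells bind the p53 regulator MDM2 when ribosome assembly fails, had log2 fold changes of -0.68 and -0.91 in DE over PSC, 0.95 and 0.93 in AFE over DE, and -1.46 and -1.64 in LPO over AFE, all called. RPS6, the substrate of S6 kinase, had 5946 and 6695 CPM in PSC, 3329 and 3096 CPM in DE, 6977 and 7050 CPM in AFE, and 1977 and 1946 CPM in LPO. RPSA, known also as the laminin receptor precursor, had 5183 and 5935 CPM in PSC, 2841 and 2785 CPM in DE, 4694 and 4808 CPM in AFE, and 1747 and 1759 CPM in LPO. In both genes DE and LPO were low and PSC and AFE high, with LPO below DE.

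The stalk genes had different calls in DE. RPLP0, the stalk base, fell in DE with a log2 fold change of -0.84 (adjusted p = 5.93e-06), while its partner RPLP2 rose with 1.12 (adjusted p = 5.01e-06) and RPLP1 was not called. In AFE all 3 rose, by 0.79, 0.84 and 1.14 for RPLP0, RPLP2 and RPLP1, and in LPO all 3 fell. The difference between the stalk genes was not tested.

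Some subunits are made as fusions to ubiquitin or a ubiquitin-like protein. The ubiquitin fusion gene RPS27A fell in DE with a log2 fold change of -0.95, rose in AFE with 1.13, and fell in LPO with -1.68. FAU, which carries a ubiquitin-like part, had 745 and 565 CPM in PSC, 457 and 444 CPM in DE, 924 and 925 CPM in AFE, and 213 and 222 CPM in LPO. Its row carried the description of another gene, synoviolin 1, and overlapped MRPL49, which held 10.2% as many counts.

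Mitochondrial subunit genes also fell on entry to endoderm. In DE, 23 of 31 fell and 3 rose against PSC, beside the 23% and 30.8% of all genes tested, with a median log2 fold change of -0.68. None of the 9 genes with an MRPS symbol rose, and 8 of them fell. MRPL18, which in human cells also has a cytosolic form under heat stress, had 93.4 and 98.8 CPM in DE, against 268 and 306 CPM in PSC, a log2 fold change of -1.58 ± 0.08 (SE, adjusted p = 3.16e-06). MRPL15 and MRPL2 of the large subunit fell by 1.46 and 1.43, and MRPS5 of the small subunit by 1.07, on the log2 scale. MRPL15 overlaps LYPLA1 and MRPL2 overlaps KLC4, both on the opposite strand, with 76.5% and 91.4% as many counts as the ribosomal gene, so both values are uncertain.

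**Figure D4:**
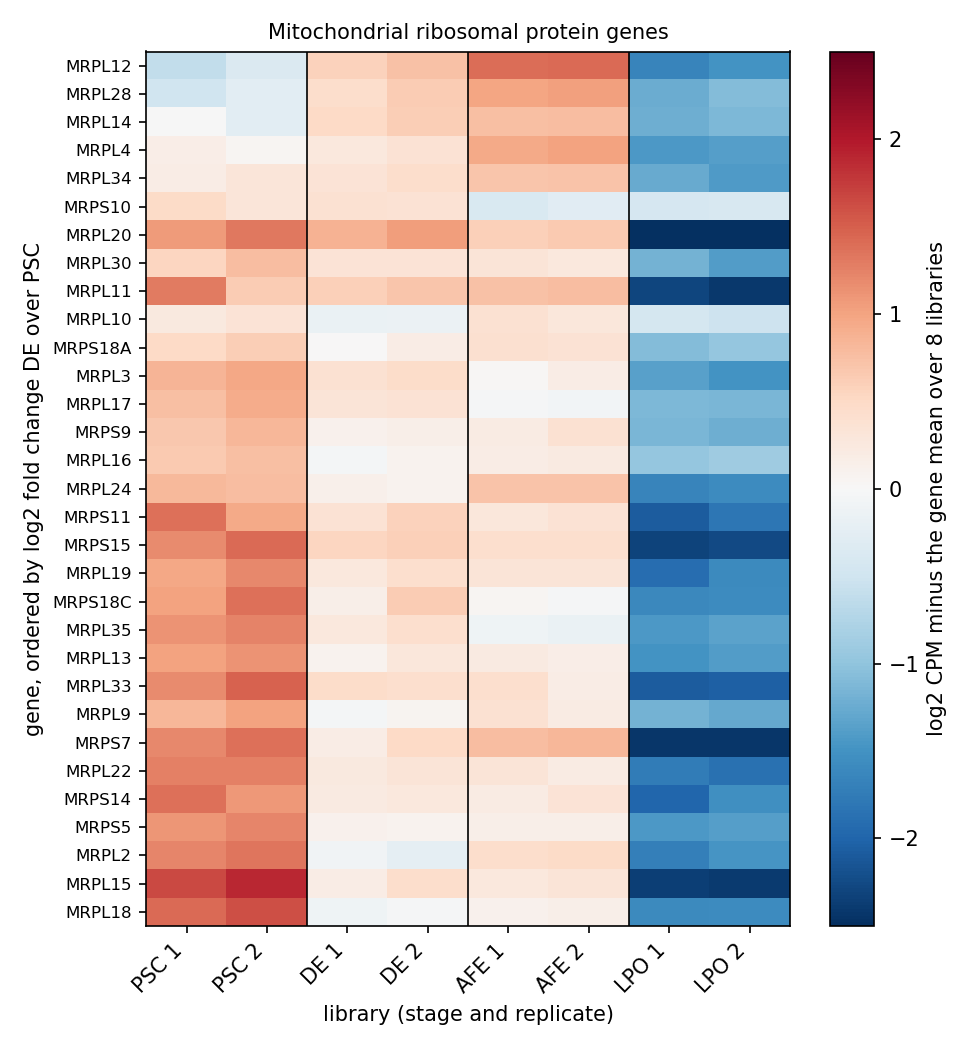
Log2 CPM of each of the 31 mitochondrial subunit genes (rows) in each of the 8 libraries (columns), minus the gene's mean over libraries, with values beyond the scale drawn in its end colours. Most genes are highest in PSC, intermediate in DE and AFE and lowest in LPO, and MRPL12 in the top row is highest in AFE.

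The 3 mitochondrial genes that rose in DE were MRPL12, MRPL28 and MRPL14. MRPL12, a stalk protein that also binds the mitochondrial RNA polymerase, had 281 and 314 CPM in DE, against 123 and 146 CPM in PSC. The libraries did not overlap, and the log2 fold change was 1.14 ± 0.10 (SE, adjusted p = 4.11e-05). MRPL28 and MRPL14, both large-subunit proteins, rose by 0.91 and 0.69 on the log2 scale. MRPL28 overlaps PGAP6 on the same strand, which held 60.6% as many counts.

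At the step to foregut, mitochondrial genes had no common direction. In AFE, 8 mitochondrial genes rose, 5 fell and 18 did not pass against DE, beside the 17.9% and 17.4% of all genes tested, and the median was 0.06, against 0.94 for the cytosolic genes over the same libraries. MRPL12 rose again, with 497 and 502 CPM in AFE, against 281 and 314 CPM in DE, a log2 fold change of 0.75 ± 0.10 (SE, adjusted p = 9.25e-04). MRPL4 rose by 0.66, MRPL24 by 0.61 and MRPL2 by 0.61, all of the large subunit. MRPS10, a small-subunit protein, had 35.2 and 38.0 CPM in AFE, against 59.7 and 58.8 CPM in DE, a log2 fold change of -0.70 ± 0.09 (SE, adjusted p = 9.06e-04). MRPL35, MRPL17 and MRPL20 of the large subunit fell by 0.48, 0.39 and 0.34. The counts of 8 higher and 5 lower were 5 and 3 without AFE replicate 1, 5 and 2 without AFE replicate 2, 5 and 4 without DE replicate 1, and 8 and 3 without DE replicate 2. MRPL20 lost its call without AFE replicate 1 or 2, DE replicate 2, or LPO replicate 1 or 2 (adjusted p = 0.0595 to 0.185), MRPL35 lost its call without AFE replicate 2 (adjusted p = 0.0504), and the difference between the classes of gene was not tested.

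In organoids the median change of the mitochondrial set was close to that of the cytosolic set. In LPO, 30 of 31 genes fell against AFE, beside the 29.6% of all genes tested, with a median log2 fold change of -2.02. By 2-fold or more, 29 of the 31 fell, beside 3985 of all 19346 genes tested. MRPL20 had 12.2 and 11.1 CPM in LPO, against 120 and 125 CPM in AFE, a log2 fold change of -3.39 ± 0.12 (SE, adjusted p = 4.10e-07). MRPS7, of the small-subunit head, had 9.07 and 9.05 CPM in LPO, against 83.9 and 86.6 CPM in AFE, a log2 fold change of -3.23 ± 0.13 (SE, adjusted p = 6.36e-07), though it overlaps MIF4GD on the opposite strand, with 91.8% as many counts. MRPL11, at the base of the stalk, and MRPL12 fell by 3.10 and 2.97 on the log2 scale. The gene that did not pass was MRPS10, with 34.4 and 34.7 CPM in LPO, against 35.2 and 38.0 CPM in AFE. Its log2 fold change of -0.08 ± 0.09 (SE, adjusted p = 0.463) turned to 0.41 on the log2(FPKM + 0.1) scale (limma, adjusted p = 0.00349).

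Against the starting cells all 31 mitochondrial genes fell in LPO, beside the 28.8% of all genes tested, with a median log2 fold change of -2.505. By 2-fold or more, 28 of the 31 fell, beside 4261 of all 19346 genes tested. MRPL15 had 10.1 and 9.93 CPM in LPO, against 164 and 192 CPM in PSC, a log2 fold change of -4.15 ± 0.13 (SE, adjusted p = 1.03e-07). MRPL20, MRPS7 and MRPS15 fell by 3.97, 3.72 and 3.60 on the log2 scale. A further 36 mitochondrial ribosomal protein genes, which stood outside the KEGG ribosome entry and were added after the values of the 31 were seen, gave 27 lower and 5 higher in DE over PSC, 5 and 5 in AFE over DE, 34 lower and none higher in LPO over AFE, and 35 lower and none higher in LPO over PSC. Their medians were -0.87, -0.02, -1.85 and -2.49. Of all genes tested, 23%, 17.4%, 29.6% and 28.8% were lower in these comparisons and 30.8%, 17.9%, 30.2% and 41.5% higher, so that the AFE over DE counts lay near or under the share of all genes. Those AFE over DE counts were 3 to 8 higher and 2 to 5 lower without 1 library, with 8 higher without either PSC library, 3 higher without AFE replicate 2, and 2 lower without either AFE library or DE replicate 1.

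Paralogs of canonical subunits stood at different levels beside them over the stages. RPL36AL, a near-identical copy of RPL36A with which it can share reads, stood at 35.4% and 34.5% of the FPKM of RPL36A in PSC, 28.7% and 30.96% in DE, 19.0% and 18.4% in AFE, and 42.3% and 41.3% in LPO. RPL26L1 stood at 12.1% and 11.5% of RPL26 in PSC, 11.4% and 12.6% in DE, 4.52% and 4.76% in AFE, and 4.55% and 5.01% in LPO. The percentage was lowest in AFE and highest in LPO for RPL36AL, and low in both AFE and LPO for RPL26L1. RPL26L1 was lower in AFE than in DE at -0.32 ± 0.08 (SE, adjusted p = 0.0194), beside 1.05 for RPL26, but lost that call without AFE replicate 1, AFE replicate 2 or DE replicate 2 (adjusted p = 0.11, 0.10 and 0.0699). RPL36AL rose by 0.36 (adjusted p = 0.0106), and lost its call without AFE replicate 1 (adjusted p = 0.0719).

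**Figure D5:**
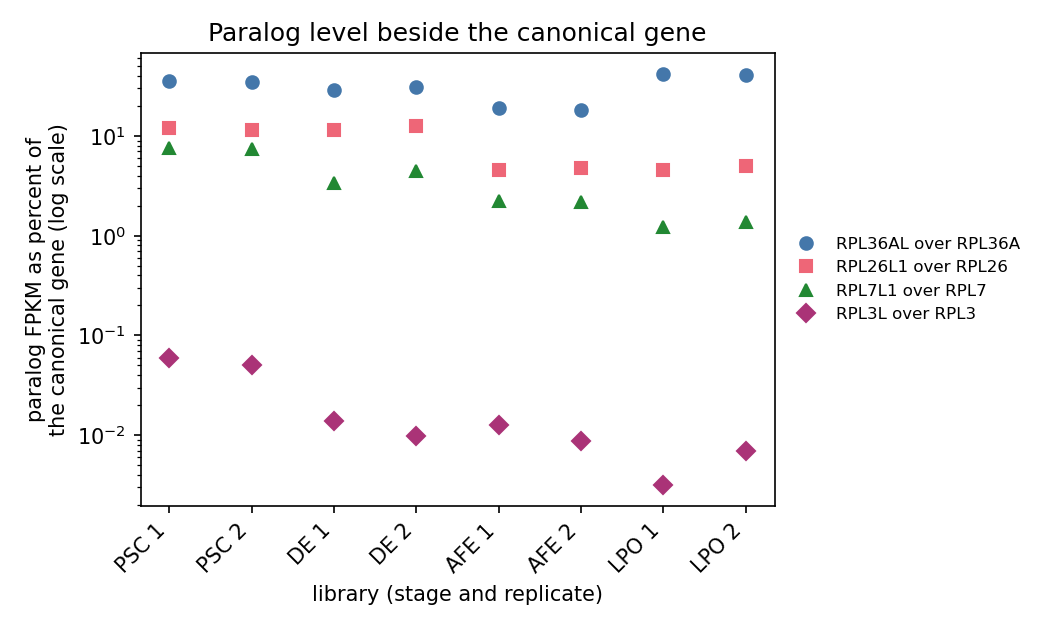
FPKM of 4 paralogs as a percent of the FPKM of the canonical gene (log scale) in each of the 8 libraries. RPL36AL over RPL36A dips to 18.4% in AFE and reaches 42.3% in LPO, while RPL7L1 over RPL7 is at 7.55% in PSC and 1.23% in LPO.

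RPL7L1, a paralog of RPL7 that works in ribosome assembly and carries no KEGG ribosome label, stood at 7.55% and 7.39% of RPL7 in PSC, 3.38% and 4.44% in DE, 2.23% and 2.19% in AFE, and 1.23% and 1.37% in LPO. RPL3L, the striated-muscle form of RPL3, was at most 0.0591% of RPL3, and its counts in both LPO libraries were under the floor of 3 read pairs. RPS27L had 62.9 and 75.6 CPM in PSC, 49.7 and 55.1 CPM in DE, 63.0 and 61.5 CPM in AFE, and 19.5 and 17.7 CPM in LPO, and fell in LPO over AFE by 1.74 on the log2 scale (adjusted p = 6.44e-06). The paralogs RPL10L, RPL22L1 and RPL39L were not analysed here.

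The assembly factor RSL24D1 had 57.7 and 63.7 CPM in PSC, 49.0 and 54.0 CPM in DE, 43.3 and 39.1 CPM in AFE, and 44.1 and 39.9 CPM in LPO. Its log2 fold change in LPO over AFE was 0.03 ± 0.11 (SE, adjusted p = 0.835). FLT3LG, the cytokine gene with a ribosome label, was higher in DE, with 12.2 and 14.2 CPM, against 5.66 and 4.31 CPM in PSC, a log2 fold change of 1.40 ± 0.18 (SE, adjusted p = 3.19e-04). All 22 rows outside the canonical set gave 3 higher and 14 lower in DE over PSC, 13 and 2 in AFE over DE, none and 19 in LPO over AFE, and 1 and 16 in LPO over PSC. The shares of all genes tested were 30.8% higher and 23% lower, 17.9% and 17.4%, 30.2% and 29.6%, and 41.5% and 28.8%. The 2 lower in AFE over DE were none or 1 without either AFE library, either LPO library or DE replicate 2, and the 1 higher in LPO over PSC was 2 without PSC replicate 1.

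Genes that build ribosomes were mostly lower in DE and again in LPO. Of 59 assembly factors, 50 were lower and 3 higher in DE over PSC (median -1.10), 8 lower and 20 higher in AFE over DE (0.20), 52 lower and 3 higher in LPO over AFE (-1.43), and 56 lower and none higher in LPO over PSC (-2.32). Beside these stood 23% lower and 30.8% higher of all genes tested in DE over PSC, 17.4% and 17.9% in AFE over DE, 29.6% and 30.2% in LPO over AFE, and 28.8% and 41.5% in LPO over PSC. NOP56, a core protein of the particles that methylate ribosomal RNA, had 1344 and 1573 CPM in PSC, 206 and 258 CPM in DE, 336 and 331 CPM in AFE, and 39.5 and 33.1 CPM in LPO. FBL, the methylase of those particles, had 931 and 753 CPM in PSC, 362 and 393 CPM in DE, 436 and 464 CPM in AFE, and 33.8 and 38.7 CPM in LPO. Both were highest in PSC and lowest in LPO. The AFE over DE counts were 8 higher and 3 lower without AFE replicate 1, 8 and 4 without AFE replicate 2, 11 higher without DE replicate 1, and 4 lower without DE replicate 2.

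A list of translation factors, which also held genes of other functions (TPT1, NACA, BTF3, NAP1L1, HNRNPA1 and RACK1), gave 23 genes here. Of these 23, 18 were lower and 3 higher in DE over PSC (median -0.47), and 3 lower and 16 higher in AFE over DE (0.70). In LPO over AFE 18 were lower and 2 higher (-0.72), and in LPO over PSC 16 were lower and 3 higher (-0.67). The shares of all genes tested were 23% lower and 30.8% higher, 17.4% and 17.9%, 29.6% and 30.2%, and 28.8% and 41.5%. The 2 higher in LPO over AFE were 1 without either AFE or either LPO library. EEF1B2, an elongation factor exchange subunit, had 2397 and 2598 CPM in PSC, 1402 and 1428 CPM in DE, 3251 and 3267 CPM in AFE, and 576 and 598 CPM in LPO. RACK1, a scaffold on the small subunit, had 4097 and 4678 CPM in PSC, 2426 and 2374 CPM in DE, 5570 and 5568 CPM in AFE, and 1824 and 1823 CPM in LPO. EEF1D, another exchange subunit, rose in DE as the 12 subunits did, with 854 and 912 CPM in DE, against 439 and 468 CPM in PSC, a log2 fold change of 0.96 ± 0.06 (SE, adjusted p = 6.66e-06).

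A list of mitochondrial translation genes gave 31 genes here. The list also held the ribosomal subunit genes AURKAIP1, PTCD3, CHCHD1, DAP3 and GADD45GIP1, so it is not wholly apart from the subunits. Of the 31, 21 were lower and 2 higher in DE over PSC, and 4 and 6 in AFE over DE. Counts were 24 and 2 in LPO over AFE, and 27 and 1 in LPO over PSC. Their median log2 fold changes were -0.78, 0.07, -0.96 and -1.78. Against all genes tested, at 23% lower and 30.8% higher, 17.4% and 17.9%, 29.6% and 30.2%, and 28.8% and 41.5%, the AFE over DE counts of these genes were near the background. The AFE over DE counts were 0 to 2 lower and 3 to 5 higher without 1 library of AFE, DE or LPO, and the 2 higher in LPO over AFE were 1 or none without either library of AFE, LPO or PSC. TUFM, the mitochondrial elongation factor, had 561 and 542 CPM in PSC, 285 and 318 CPM in DE, 415 and 421 CPM in AFE, and 71.3 and 82.1 CPM in LPO. MTG2, a GTPase of mitochondrial ribosome assembly, went the other way in DE, with 46.0 and 43.1 CPM, against 6.25 and 4.99 CPM in PSC, a log2 fold change of 2.98 ± 0.13 (SE, adjusted p = 1.59e-06). Of 24 nuclear genes of the respiratory chain and ATP synthase, 20 were lower and 2 higher in DE over PSC, 9 and 3 in AFE over DE, 23 and 1 in LPO over AFE, and 24 and none in LPO over PSC, with medians of -0.82, -0.15, -1.70 and -2.34. The same shares of all genes apply to these 24 genes. The 9 lower in AFE over DE were 4 without AFE replicate 1 and 5 without AFE replicate 2, and the 2 higher in DE over PSC were 1 without either library of DE, AFE or LPO.

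Of 14 genes acting on pyrimidine-tract mRNAs or on ribosome production, 5 were higher and 6 lower in DE over PSC, 2 and 4 in AFE over DE, 4 and 7 in LPO over AFE, and 3 and 7 in LPO over PSC. Their median log2 fold changes were -0.00, -0.04, -0.38 and -0.56, beside shares of all genes tested of 30.8% higher and 23% lower, 17.9% and 17.4%, 30.2% and 29.6%, and 41.5% and 28.8%. The 4 lower in AFE over DE were 2 without either AFE library, and the 3 higher in LPO over PSC were 5 without PSC replicate 1. MYC, an activator of ribosome production, had 102 and 105 CPM in PSC, 25.3 and 18.6 CPM in DE, 8.08 and 10.1 CPM in AFE, and 22.4 and 21.4 CPM in LPO. Its relative MYCN had 112 and 106 CPM in PSC, 75.9 and 56.5 CPM in DE, 139 and 140 CPM in AFE, and 10.03 and 9.10 CPM in LPO. MYCN was thus highest in AFE and lowest in LPO. Of 14 genes of ribosome surveillance, 3 were higher and 6 lower in DE over PSC, 2 and 3 in AFE over DE, 8 and 5 in LPO over AFE, and 5 and 6 in LPO over PSC, beside the same shares of all genes. Their medians were -0.12, -0.13, 0.27 and -0.03. The 8 higher in LPO over AFE were 4 to 5 without either LPO library or AFE replicate 1, and the 5 higher in LPO over PSC were 2 to 3 without either LPO library. The 2 higher in AFE over DE were 1 without either AFE library, and the 3 lower were 1 without AFE replicate 2.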

How the data were processed

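Poly(A)-selected RNA from 8 libraries was sequenced in pairs. Per the submitters' processing notes, the authors' tools included StringTie 2.1.6, HISAT2 2.2.1 and cutadapt 1.9, with edgeR and DESeq2 in unnamed versions, in no stated order. The sources name no genome build. The deposited table holds FPKM values and estimated counts per gene, both made by the authors. The counts are whole numbers, about 4 per read pair, which overstates the precision of single counts. Members and gene lists were chosen with earlier results of these data known. Named genes are, per class and comparison, the 4 largest rises and falls among called members that reach 5 FPKM, the 5 highest and 3 lowest in mean FPKM, the 3 farthest from the class profile, the paralogs, fusion and stalk genes, RPSA, RPS6, RPL5 and RPL11, and up to 4 genes of smallest adjusted p per other list. RPL3, RPL15, RPL8, RSL24D1 and FLT3LG, and the lists of genes that rose in DE or did not pass, were named after their values were seen. Counts were tested with edgeR 4.0.16 (R 4.3.3, TMM scaling, filterByExpr, a 4-stage model with 4 residual degrees of freedom, quasi-likelihood test, Benjamini-Hochberg over 19346 genes, called at 0.05). Folds rest on few libraries, and p-values on a spread pooled over stages. Class medians cover all members. Alternatives used DESeq2 1.42.0, limma 3.58.1 on log2(FPKM + 1) and log2(FPKM + 0.1), other scalings and filters, and left out each library. Gene names came from the deposited symbol for 99 members, the reference table for 4 and the deposited description for 6. The fit was tested on simulated data, built from counts divided by 4 with the same spread for every gene and changes in DE alone. That setting differs from the deposited counts fitted here. Of the 125 members, 54 overlap another gene, and in 14 the neighbour holds 10% or more of their counts. Replicate numbers did not pair the libraries. A few members are not reported by name here. Promoter sequences and genes of the mitochondrial genome were not analysed here.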

Additional observations from a re-analysis of the deposited data

How the results depend on the processing

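No alternative reversed a class median. For cytosolic genes in DE over PSC the median was -0.90 with DESeq2's Wald test or its size factors, -0.77 with TMM factors from genes outside the members or with limma on log2(FPKM + 1) or log2(FPKM + 0.1), -0.76 with counts divided by 4, -0.83 with a filter of 5 FPKM in 2 libraries, -1.02 with upper-quartile scaling, and -0.80 to -0.67 on leaving out 1 library. In AFE over DE it was 0.97 with the filter or upper-quartile scaling, 0.89 with limma and 0.90 to 0.96 without 1 library. In LPO over AFE it was -1.96 with both DESeq2 settings, -2.07 with outside TMM factors, -1.75 with the filter, -1.53 with limma, -2.04 in the 4 libraries compared, -1.90 with upper-quartile scaling, and -2.05 to -1.99 without 1 library. In LPO over PSC it was -1.71 with both DESeq2 settings, -1.67 with outside factors, -1.39 with the filter, -1.18 with limma, -1.69 in 4 libraries, -1.72 with upper-quartile scaling, and -1.69 to -1.53 without 1 library, with 6 genes called higher by limma and 5 without PSC replicate 1. For mitochondrial genes in DE over PSC the median was -0.84 with both DESeq2 settings, -0.77 with the filter, -0.96 with upper-quartile scaling and -0.77 to -0.60 without 1 library. In AFE over DE, 3 were lower with upper-quartile scaling, and 5 to 11 higher and 2 to 5 lower without 1 library. In LPO over AFE the median was -1.76 with the filter, -1.48 and -1.34 with limma at pseudocounts 0.1 and 1, which also called 1 gene higher (MRPS10), -1.89 with upper-quartile scaling and -2.02 to -1.90 without 1 library. In LPO over PSC it was -2.62 with both DESeq2 settings, -2.25 with the filter, -2.08 and -1.91 with limma, -2.60 in 4 libraries, -2.63 with upper-quartile scaling and -2.61 to -2.44 without 1 library. Reversed single genes were MRPS10 in LPO over AFE (limma, 0.41 and 0.39), RPS14 in LPO over PSC (limma, 0.33 with either pseudocount) and RPLP1 in LPO over PSC (0.46 without PSC replicate 1 and -0.47 without PSC replicate 2), and the cause was not tested. Over the named members, 4684 values under alternatives kept direction and call, 47 gained a call, 44 lost one and 5 reversed. Over all genes, 4935 rose and 5763 fell in DE over PSC with upper-quartile scaling (5962 and 4453 with TMM), and 8969 and 4442 in LPO over AFE with limma on log2(FPKM + 1) (5842 and 5732). The median of all genes moved to -0.03 in DE over PSC with upper-quartile scaling (0.08 with TMM), to 0.22 with that scaling and 0.43 with limma at pseudocount 0.1 in LPO over AFE (0.09), and to 0.23 to 0.65 in LPO over PSC (0.49). Leaving out a library leaves its stage with 1, assumed to vary like the other stages. Replicate numbers did not pair the libraries (correlations of deviations -0.0136 to 0.00782), and with a replicate block 13 cytosolic genes rose and 57 fell in DE over PSC (12 and 57 without it). With 2 libraries per stage, counts near the background, such as those of mitochondrial genes in AFE over DE, are the least firm.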
